A study of Mus musculus with 9 samples.

Results

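A set of 39 genes of the skeletal muscle sarcomere, its calcium cycle and its energy supply was followed across 9 messenger RNA libraries of mouse conjunctiva, the mucous membrane of the eye. Members were taken by gene symbol, and 38 of the 39 symbols had a row among the 20603 genes of the table. Levels of Tnnc2, the fast troponin C gene, were not analysed here, and it enters only the search of promoters. The libraries formed 3 groups of 3 pools, and each pool combined the tissue of 3 mice of the C57BL/6j background. The first group was challenged Vegfr3iLECko (the knockout pools), which carried floxed Vegfr3 alleles (Vegfr3 fl/fl) and prox1CreERT2, a tamoxifen-inducible Cre recombinase. The second was challenged Ctrl, the Vegfr3 fl/fl littermates without Cre, and the third was unchallenged Ctrl of the same genotype. At week 5, mice of all 3 groups were given tamoxifen (75 mg/kg) in 5 injections into the peritoneum. At week 6 they were immunized with ovalbumin, pertussis toxin and aluminum hydroxide. Challenge was a daily ovalbumin eye drop to the right eye for 28 days, with saline to the other eye. Which eye gave the unchallenged pools is not stated. The Cre is driven by Prox1, which is known for lymphatic endothelium but is also active in some other cells, skeletal muscle among them. Which cells recombined was not tested.

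Skeletal muscle contracts when myosin heads of the thick filament pull on actin thin filaments within the sarcomere, between the Z-discs that anchor them. Calcium released from the sarcoplasmic reticulum binds troponin on the thin filament and starts the cycle, and a calcium pump ends it. Fast and slow fibres build these parts from different isoforms. The conjunctiva itself holds no skeletal muscle fibres, but the muscles that move the eye and close the lids lie beside it. Eye muscles are known for a mix of fibres that also use embryonic and eye-specific myosins.

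Total counts were 16490050 to 24746836 per library, and all 38 members were among the 15613 genes with enough counts to be tested. No pair of libraries of a group was a copy of another. Flt4, the gene of Vegfr3, was at 12.9, 5.07 and 5.31 CPM (the count scaled to library size with TMM factors) in the Vegfr3iLECko pools and at 13.3, 20.2 and 20.1 CPM in challenged Ctrl. Knockout pool 1 was thus close to the lowest challenged Ctrl pool. Epithelial keratins dominated every library, with Krt5 at 11976 ± 4151 CPM in Vegfr3iLECko, 9989 ± 4070 CPM in challenged Ctrl and 9631 ± 3149 CPM in unchallenged Ctrl (SD, n = 3 pools each).

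The members were a small part of each library, and that part was lowest in challenged Ctrl. In the Vegfr3iLECko pools 1 to 3 they took 0.520% (interval 0.517 to 0.523%), 0.386% (interval 0.383 to 0.389%) and 0.556% (interval 0.552 to 0.559%) of all counts. In challenged Ctrl they took 0.184% (interval 0.182 to 0.186%), 0.126% (interval 0.125 to 0.128%) and 0.0587% (interval 0.0576 to 0.0598%). In unchallenged Ctrl they took 0.335% (interval 0.332 to 0.338%), 0.984% (interval 0.980 to 0.988%) and 0.459% (interval 0.456 to 0.462%). The intervals are 95% Wilson intervals and cover counting error only. All 3 Vegfr3iLECko pools and all 3 unchallenged Ctrl pools were above all 3 challenged Ctrl pools. The group means were 0.487 ± 0.0894% in Vegfr3iLECko, 0.123 ± 0.0628% in challenged Ctrl and 0.593 ± 0.344% in unchallenged Ctrl (SD, n = 3). On the mean log2 share, Vegfr3iLECko was 4.34-fold higher than challenged Ctrl, and challenged Ctrl was 4.81-fold lower than unchallenged Ctrl. In bulk tissue, fewer muscle fibres in a pool and less muscle RNA per fibre cannot be told apart.

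**Figure D1:**
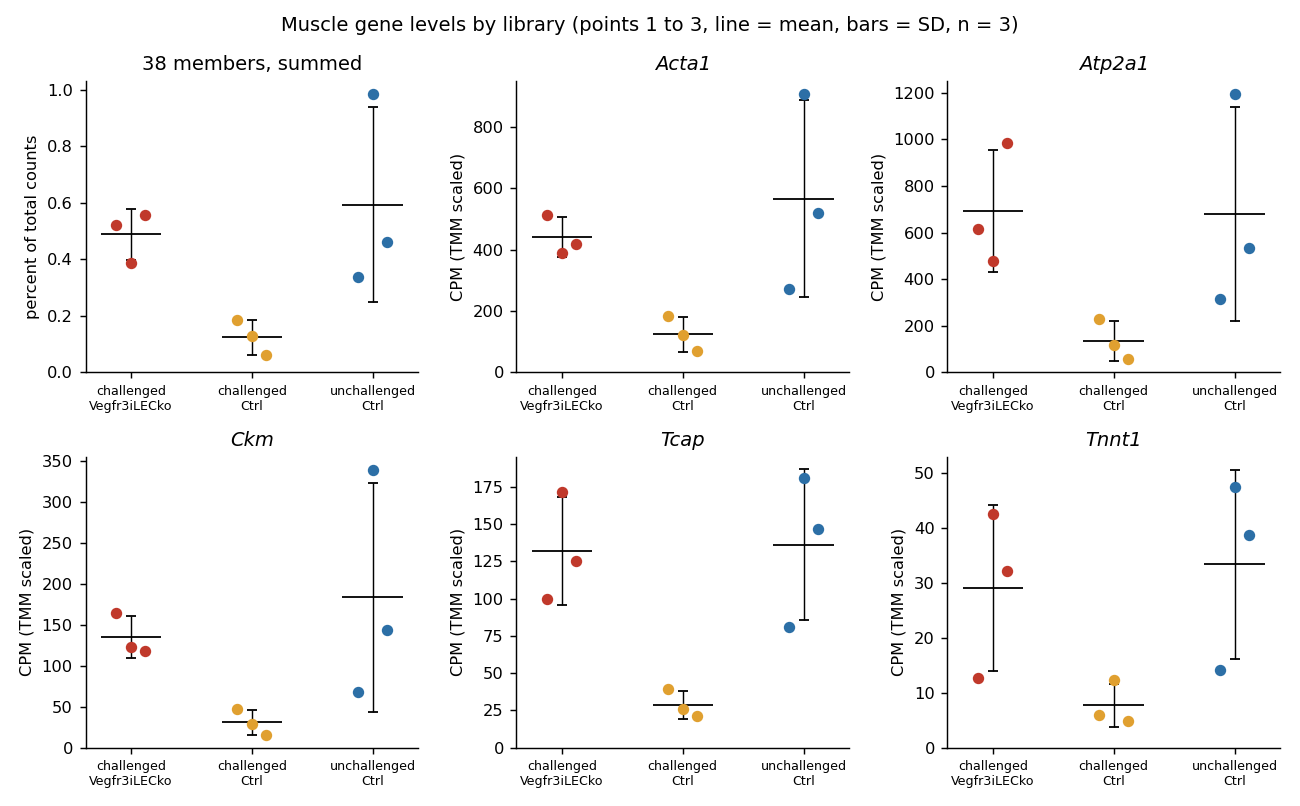
Summed share of the 38 members in percent of total counts, and TMM-scaled CPM of Acta1, Atp2a1, Ckm, Tcap and Tnnt1, by group; each point is a pool of 3 mice, the line is the mean and the bars are the SD (n = 3). In each panel but that of Tnnt1 the 3 challenged Ctrl points lie below every other point by a visible gap, and for Tnnt1 the highest challenged Ctrl pool (12.2 CPM) is just below the lowest Vegfr3iLECko pool (12.7 CPM).

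Single pools stood apart within their groups and did so for most members at once. Unchallenged Ctrl pool 2 was the highest of the 9 libraries for 32 of 38 members. Challenged Ctrl pool 3 was the lowest of the 9 for 32 of 38. Within the unchallenged Ctrl group, pool 1 was the lowest for 31 members. The heat map of member levels shows these pools as whole columns of high or low values. Comparisons below therefore rest on 3 pools a group that differ widely among themselves.

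**Figure D2:**
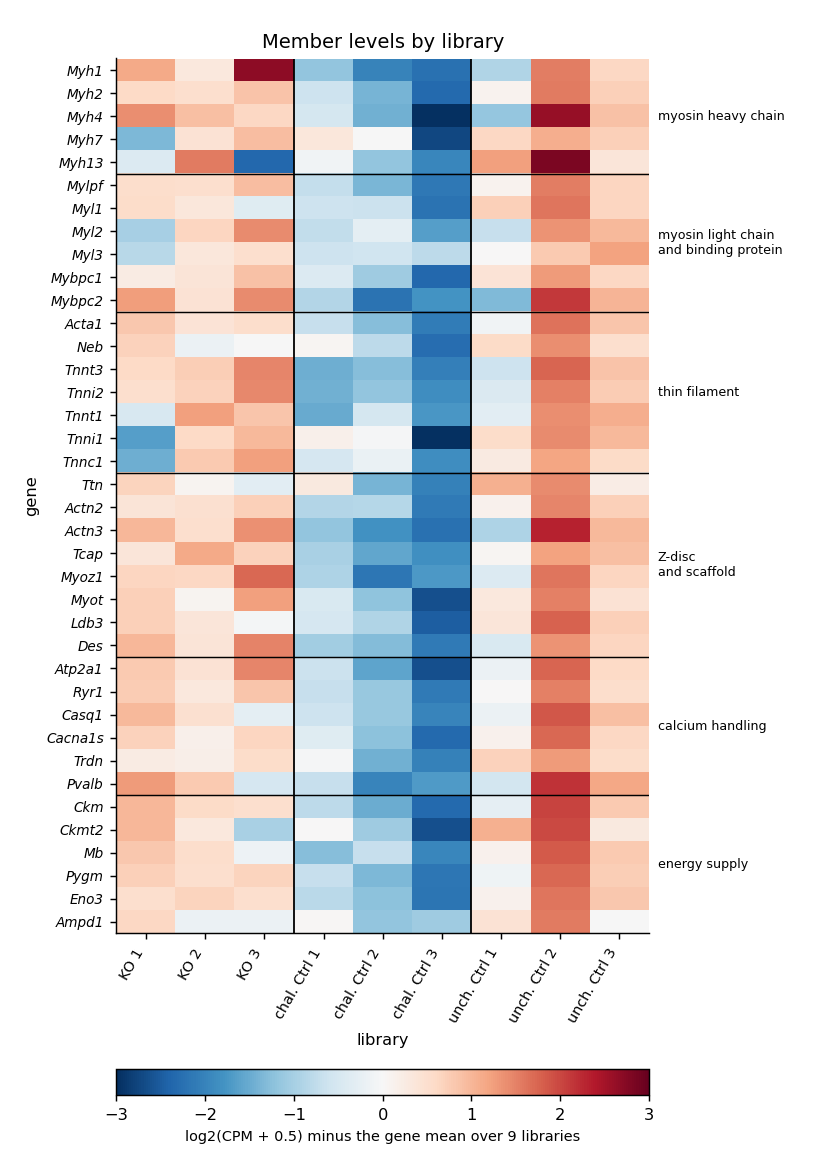
Level of each of the 38 members (rows, grouped by role) in each of the 9 libraries (columns), as log2(CPM + 0.5) minus the mean of that gene over the 9 libraries; red is above and blue below the gene's mean. The 3 challenged Ctrl columns are blue for most members, and the column of unchallenged Ctrl pool 2 is red for nearly all.

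Under challenge, all 38 members were higher in Vegfr3iLECko than in challenged Ctrl on the log2 fold change, as were 50.4% of all genes, but 0 passed the test over all genes. The edgeR quasi-likelihood test with Benjamini-Hochberg adjustment called 0 of 38 members and 0% of all genes tested. The lowest adjusted p of a member was 0.286, for Tcap. At an unadjusted p under 0.05 the same edgeR test gave 28 members higher and 0 lower, beside 3.95% of all genes higher. DESeq2 called 22 members higher, beside 0.854% of all genes. For 28 members all 3 Vegfr3iLECko pools were above all 3 challenged Ctrl pools, a pattern met by 6.7% of all genes. The median log2 fold change of the members was 1.88, with a range of 0.62 for Myh7 to 3.46 for Myh1, and the median of all genes tested was 0.003. Without challenged Ctrl pool 1 the fold of 10 members moved by over 1.5 times, and without any single knockout pool that of 1 or 2 did. The members' median stayed between 1.57 and 2.25 when any single library was dropped.

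In Ctrl mice, all 38 members were lower in challenged than in unchallenged pools on the log2 fold change, as were 51.5% of all genes. The edgeR test called 0 of 38 members, and 0.0064% of all genes lower. The lowest adjusted p was 0.0708, again for Tcap. At an unadjusted p under 0.05 edgeR gave 36 members lower and 0 higher, beside 5.65% of all genes lower. DESeq2 called 31 members lower, beside 1.94% of all genes. For 33 members all 3 challenged pools were below all 3 unchallenged pools, as for 8.51% of all genes. The median log2 fold change was -2.20, from -3.32 for Myl3 to -1.19 for Myh7, beside a median of -0.01 over all genes. Over all genes tested, same-numbered challenged and unchallenged Ctrl pools deviated together. The members did not follow this in pool 1: challenged Ctrl pool 1 was the highest of its group for 30 members. Unchallenged Ctrl pool 1 was the lowest of its group for 31. With the replicate number as a block edgeR called 10 members lower, beside 0.525% of all genes. These were Myl1, Tnni2, Tnnt1, Ttn, Actn2, Tcap, Ldb3, Ckmt2, Mb and Eno3. The block over all 9 libraries also spans the knockout pools, whose numbers were not read as pairs. With the block in the Ctrl groups only edgeR called 7 of these 10, beside 0.891% of all genes lower, and Ttn, Ldb3 and Eno3 missed the threshold. Challenged Ctrl was below unchallenged Ctrl of the same number in all 3 pairs for 36 members. The 33 members without overlap meet this pattern by construction, and it was not counted over all genes, so nothing is read from it. The number of members called depended on single pools. Without unchallenged Ctrl pool 1 edgeR called 18 members lower with no block, among 121 genes called in either direction. Without challenged Ctrl pool 1 it called Trdn alone of the members, among 8 genes. The fold of single members also moved by over 1.5 times, for 15 of 38 members without unchallenged Ctrl pool 2 and for 10 without challenged Ctrl pool 1. All 38 log2 fold changes stayed below 0.

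**Figure D3:**
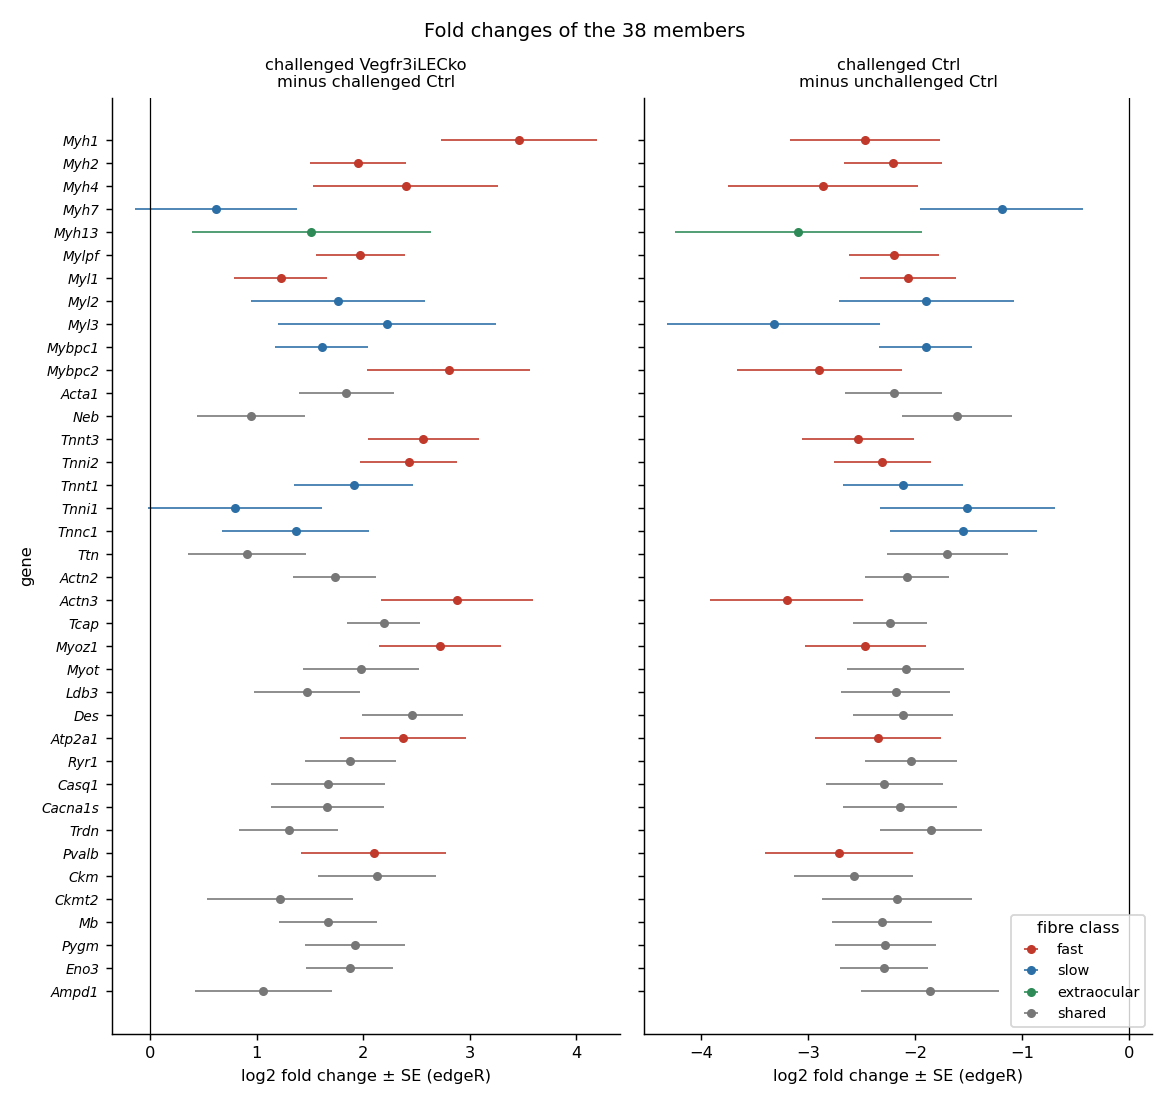
Fold changes of the 38 members on the log2 scale with SE from the edgeR fit, for challenged Vegfr3iLECko minus challenged Ctrl (left) and challenged Ctrl minus unchallenged Ctrl (right); colour gives the fibre class. All 38 points are above 0 on the left and below 0 on the right; both panels use the challenged Ctrl pools.

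The challenged Vegfr3iLECko pools and unchallenged Ctrl pools largely overlapped. In this comparison edgeR called 0 members and 0% of all genes, with an adjusted p of 0.999 for each member. At an unadjusted p under 0.05 edgeR gave 0 members, beside 1.25% of all genes higher and 1.65% lower, and DESeq2 gave 0, beside 0.0636% higher and 0.0254% lower. The log2 fold change was above 0 for 6 members and below 0 for 32, where 49.3% of all genes were below 0, with a median of -0.36. Without unchallenged Ctrl pool 2 the median was 0.14. Myl1 was the 1 member whose 3 Vegfr3iLECko pools were all below the 3 unchallenged Ctrl pools, and 3.34% of all genes had that pattern. The SE of the members' log2 fold changes was 0.33 for Tcap to 1.07 for Myh13. The 3 comparisons share their pools in pairs, so they are not separate evidence of a shared pattern.

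Of the 39 members, 30 had an entry among the RefSeq promoters (build GRCm38.p6, 250 bases before to 50 after a transcription start), and their letters were searched for motifs of muscle factors. CAGCTG, a form of the E-box CANNTG that myogenic regulators such as MyoD are known to bind, was present in 16 of the 30 members (53.3%), beside 18.3% of 27025 genes. CANNTG in any form was in 86.7% of members and 75.0% of genes, TATAAA in 23.3% and 15.7%, the MEF2 motif in 13.3% and 3.70%, and the CArG box in 16.7% and 1.81%. All motifs were searched on both strands, and CAGCTG, which reads the same on both, counts among the CANNTG forms. It was in 4 of 9 members of fast fibres, 3 of 7 of slow fibres, 9 of 13 of both fibre types and not in the window of Myh13. The 250 bases before the start are shown, 5′ to 3′, for 3 fast-fibre genes and 1 slow-fibre gene that have it at a like distance, with CAGCTG in capitals.
Mylpf, fast regulatory light chain, chr7:127211358-127211607, plus strand: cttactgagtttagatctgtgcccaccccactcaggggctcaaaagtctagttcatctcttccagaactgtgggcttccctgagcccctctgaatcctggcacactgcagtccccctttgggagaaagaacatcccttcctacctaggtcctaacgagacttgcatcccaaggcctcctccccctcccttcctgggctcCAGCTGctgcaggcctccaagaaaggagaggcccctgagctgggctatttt
Atp2a1, fast calcium pump, chr7:126463074-126463323, minus strand: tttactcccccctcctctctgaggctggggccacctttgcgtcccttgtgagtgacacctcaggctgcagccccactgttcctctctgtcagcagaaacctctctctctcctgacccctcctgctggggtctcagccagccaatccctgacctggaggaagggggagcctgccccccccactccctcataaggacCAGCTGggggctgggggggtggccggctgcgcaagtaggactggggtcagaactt
Myh4, fast 2B myosin, chr11:67237562-67237811, plus strand: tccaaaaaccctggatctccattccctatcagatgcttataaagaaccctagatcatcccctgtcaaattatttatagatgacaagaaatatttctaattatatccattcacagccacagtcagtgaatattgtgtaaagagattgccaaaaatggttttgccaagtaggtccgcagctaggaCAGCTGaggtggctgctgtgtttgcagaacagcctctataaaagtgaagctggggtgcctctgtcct
Tnni1, slow troponin I, chr1:135799171-135799420, plus strand: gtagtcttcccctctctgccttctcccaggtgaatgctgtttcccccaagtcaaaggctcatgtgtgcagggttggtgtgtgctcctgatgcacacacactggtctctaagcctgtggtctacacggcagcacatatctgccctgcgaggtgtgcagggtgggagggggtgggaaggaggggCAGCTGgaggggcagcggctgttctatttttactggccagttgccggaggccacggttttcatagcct
The first base of CAGCTG lay 51 bases before the start in Mylpf, 55 in Atp2a1, 67 in Myh4 and 68 in Tnni1. From another start listed for Tnni1 the same CAGCTG lay 158 bases before, so its like distance holds for the start shown only. Neither Myh1 nor Myh2 had a CANNTG in its window. These matches describe letters, and no binding was measured.

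Myosin heavy chains are the motors of the thick filament, and 5 were members. Myh1, the fast 2X chain, was at 312, 175 and 908 CPM in Vegfr3iLECko, 62.02, 34.9 and 29.6 CPM in challenged Ctrl and 75.2, 407 and 218 CPM in unchallenged Ctrl. Knockout pool 3 was far above every other library for Myh1, and the challenged Ctrl pools were below all others. Its log2 fold change was 3.46 (SE 0.73; edgeR adjusted p = 0.299) for Vegfr3iLECko against challenged Ctrl, an 11.03-fold difference. It was 2.53 without knockout pool 3. For challenged against unchallenged Ctrl it was -2.47 (SE 0.70; edgeR adjusted p = 0.176). Against unchallenged Ctrl, Vegfr3iLECko was 0.99 higher on the log2 scale, but 0.06 without knockout pool 3.

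Myh2, the fast 2A chain of more oxidative fibres, was at 299, 281 and 359 CPM in Vegfr3iLECko, 129, 74.97 and 38.8 CPM in challenged Ctrl and 214, 583 and 325 CPM in unchallenged Ctrl. The challenged Ctrl pools lay below both other groups. Myh2 was 3.86-fold higher in Vegfr3iLECko than in challenged Ctrl (log2 1.95, SE 0.45; edgeR adjusted p = 0.325) and 4.62-fold lower in challenged than in unchallenged Ctrl (log2 -2.21, SE 0.45; edgeR adjusted p = 0.101). Myh4, the fastest limb chain (2B), was at 209.8, 149 and 121 CPM in Vegfr3iLECko, 54.8, 28.7 and 7.69 CPM in challenged Ctrl and 34.8, 482 and 146 CPM in unchallenged Ctrl. Unchallenged pool 1 was below challenged Ctrl pool 1 for Myh4, so those groups overlapped. Myh4 had a log2 fold change of 2.40 (SE 0.87; edgeR adjusted p = 0.497) for Vegfr3iLECko against challenged Ctrl and -2.86 (SE 0.89; edgeR adjusted p = 0.203) for challenge in Ctrl, the last being -1.57 without unchallenged pool 2. Myh7, the slow chain that heart also uses, was at 3.03, 11.6 and 16.5 CPM in Vegfr3iLECko, 10.9, 8.38 and 0.855 CPM in challenged Ctrl and 13.4, 18.6 and 14.2 CPM in unchallenged Ctrl. Vegfr3iLECko and challenged Ctrl overlapped for Myh7, with low values in knockout pool 1 and challenged pool 3. Its log2 fold change between them was 0.62 (SE 0.76; edgeR adjusted p = 0.824), the smallest of the members.

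Myh13, the superfast chain of eye and larynx muscles, differed from the fast limb chains in its order of the knockout pools. In challenged Ctrl its pools had the same order as theirs. Unchallenged pool 2 was the highest of its group for all of them, but pools 1 and 3 were in reverse order for Myh13. Myh13 was at 2.29, 10.4 and 0.229 CPM in Vegfr3iLECko, 2.97, 1.12 and 0.456 CPM in challenged Ctrl and 8.15, 25.9 and 4.30 CPM in unchallenged Ctrl. Knockout pool 3, the highest library for Myh1, was the lowest for Myh13, with 4 counts, while knockout pool 2 had 177. For Vegfr3iLECko against challenged Ctrl its log2 fold change was 1.51 (SE 1.12; edgeR adjusted p = 0.736). That value was -0.20 without knockout pool 2, so its direction rested on that pool. All 3 challenged Ctrl pools were below the 3 unchallenged ones (log2 -3.09, SE 1.15; edgeR adjusted p = 0.290). Stretches of 50 bases shared with other myosin transcripts made up 26.9% of Myh2, 26.7% of Myh1 and 18.9% of Myh4, against 8.45% of Myh13 and 0.21% of Myh7. Reads from those stretches may be split between these chains, depending on how the counting treated them.

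Light chains and myosin binding proteins, 6 members, steady the myosin neck and tie the thick filament. Myl1, the fast essential light chain, was at 309, 264 and 162 CPM in Vegfr3iLECko, 136, 134 and 44.5 CPM in challenged Ctrl and 347, 642 and 327 CPM in unchallenged Ctrl. The 3 groups did not overlap for Myl1, with challenged Ctrl lowest and unchallenged Ctrl highest. Its log2 fold change was 1.23 (SE 0.44; edgeR adjusted p = 0.489) for Vegfr3iLECko and -2.07 (SE 0.45; edgeR adjusted p = 0.101, or 0.0200 with the block) for challenge in Ctrl. Mybpc1, the slow-type myosin binding protein C, was at 156, 172 and 239.8 CPM in Vegfr3iLECko, 98.2, 62.7 and 25.2 CPM in challenged Ctrl and 175, 320.2 and 200.4 CPM in unchallenged Ctrl. The challenged Ctrl pools were again below both other groups. Mybpc2, the fast-type partner, averaged 22.2 ± 7.39 CPM in Vegfr3iLECko, 3.20 ± 1.82 CPM in challenged Ctrl and 23.6 ± 21.2 CPM in unchallenged Ctrl (SD, n = 3). Mylpf, the fast regulatory light chain whose upstream bases are shown above, averaged 144 ± 24.2 CPM in Vegfr3iLECko, 36.6 ± 17.3 CPM in challenged Ctrl and 168 ± 87.4 CPM in unchallenged Ctrl. The slow light chains were scarce: Myl2 averaged 4.29 ± 3.29 CPM in Vegfr3iLECko, 1.24 ± 0.759 CPM in challenged Ctrl and 4.67 ± 3.00 CPM in unchallenged Ctrl. Myl3 had 1, 12 and 15 counts in Vegfr3iLECko, 2, 3 and 1 in challenged Ctrl and 9, 30 and 33 in unchallenged Ctrl, so its fold changes are loosely set.

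The thin filament group had 7 members in the table. Acta1, the actin of skeletal muscle, was at 513, 389 and 419 CPM in Vegfr3iLECko, 182, 119.9 and 67.8 CPM in challenged Ctrl and 272, 908 and 519 CPM in unchallenged Ctrl. No challenged Ctrl pool reached any pool of the other groups. Acta1 was 3.58-fold higher in Vegfr3iLECko than in challenged Ctrl (log2 1.84, SE 0.45; edgeR adjusted p = 0.338) and 4.60-fold lower in challenged than in unchallenged Ctrl (log2 -2.20, SE 0.45; edgeR adjusted p = 0.101). Neb, the nebulin ruler of the thin filament, averaged 97.4 ± 33.4 CPM in Vegfr3iLECko, 50.7 ± 35.4 CPM in challenged Ctrl and 154 ± 57.7 CPM in unchallenged Ctrl (SD, n = 3). Vegfr3iLECko and challenged Ctrl overlapped for Neb.

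Troponin carries the calcium switch: troponin T binds tropomyosin, troponin I blocks myosin and troponin C binds calcium. The fast troponin T, Tnnt3, was at 174, 189 and 317 CPM in Vegfr3iLECko, 41.1, 46.6 and 27.3 CPM in challenged Ctrl and 74.1, 384 and 208 CPM in unchallenged Ctrl. The fast troponin I, Tnni2, was at 137, 156 and 262 CPM in Vegfr3iLECko, 34.8, 42.1 and 26.1 CPM in challenged Ctrl and 70.8, 276 and 162 CPM in unchallenged Ctrl. Both fast subunits had challenged Ctrl pools below every other pool. Tnnt3 was 5.91-fold higher in Vegfr3iLECko than in challenged Ctrl (log2 2.56, SE 0.52; edgeR adjusted p = 0.299), and Tnni2 5.38-fold (log2 2.43, SE 0.46; edgeR adjusted p = 0.299). For challenge in Ctrl, Tnni2 had a log2 fold change of -2.31 (SE 0.45; edgeR adjusted p = 0.0980, or 0.0420 with the block).

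The slow troponins were less uniform. Tnnt1, slow troponin T, was at 12.7, 42.4 and 32.1 CPM in Vegfr3iLECko, 5.93, 12.2 and 4.90 CPM in challenged Ctrl and 14.2, 47.3 and 38.6 CPM in unchallenged Ctrl. Its groups did not overlap between Vegfr3iLECko and challenged Ctrl, though knockout pool 1 and challenged pool 2 nearly met (log2 fold change 1.91, SE 0.56; edgeR adjusted p = 0.381). Tnni1, slow troponin I, was at 3.11, 16.7 and 21.6 CPM in Vegfr3iLECko, 12.2, 10.6 and 0.912 CPM in challenged Ctrl and 16.2, 29.8 and 21.6 CPM in unchallenged Ctrl. Knockout pool 1 lay below challenged Ctrl pools 1 and 2, so the log2 fold change of Tnni1 was 0.80 (SE 0.81; edgeR adjusted p = 0.795). Tnnc1, the troponin C of slow and heart muscle, was at 1.98, 11.2 and 15.4 CPM in Vegfr3iLECko, 4.26, 5.37 and 1.37 CPM in challenged Ctrl and 7.63, 15.03 and 9.65 CPM in unchallenged Ctrl. For Tnni1 and Tnnc1 the challenged Ctrl pools were below all unchallenged ones but overlapped with Vegfr3iLECko.

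Z-disc and scaffold proteins, 8 members, anchor the filaments and hold the sarcomere in register. Ttn encodes titin, the spring between Z-disc and thick filament, and was at 226, 150.2 and 114 CPM in Vegfr3iLECko, 173, 53.5 and 34.5 CPM in challenged Ctrl and 299, 383 and 166 CPM in unchallenged Ctrl. Challenged Ctrl pool 1 overlapped with both other groups for Ttn. Its log2 fold change for Vegfr3iLECko against challenged Ctrl was 0.91 (SE 0.55; edgeR adjusted p = 0.695), and 1.89 without that pool. Tcap, the titin cap and the member with the lowest adjusted p in both comparisons, was at 100.02, 171 and 125 CPM in Vegfr3iLECko, 39.5, 26.02 and 21.3 CPM in challenged Ctrl and 81.1, 181 and 146 CPM in unchallenged Ctrl. Its highest challenged Ctrl pool was below the lowest pool of either other group. Tcap was 4.57-fold higher in Vegfr3iLECko than in challenged Ctrl (log2 2.19, SE 0.34; edgeR adjusted p = 0.286) and 4.71-fold lower in challenged than in unchallenged Ctrl (log2 -2.24, SE 0.34; edgeR adjusted p = 0.0708, or 0.0299 with the block).

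Des, the desmin filament that links Z-discs and is also made by smooth muscle, was at 210.3, 137 and 296 CPM in Vegfr3iLECko, 50.8, 42.3 and 23.7 CPM in challenged Ctrl and 75.8, 268 and 163 CPM in unchallenged Ctrl. Against challenged Ctrl the log2 fold change of Vegfr3iLECko was 2.46 (SE 0.47; edgeR adjusted p = 0.299). The summed level of 8 smooth muscle markers was 531, 23.8 and 89.1 CPM in Vegfr3iLECko and 35.8, 47.97 and 47.02 CPM in challenged Ctrl, so it was high in knockout pool 1 and lower in knockout pool 2 than in any challenged Ctrl pool. Of the knockout pools, Des was lowest in pool 2, at 137 CPM, still above all challenged Ctrl pools, and was at 210.3 CPM in pool 1. The part of smooth muscle in the level of Des was not tested. Actn2, an α-actinin of all fibres, averaged 83.6 ± 9.56 CPM in Vegfr3iLECko, 25.1 ± 10.6 CPM in challenged Ctrl and 106 ± 49.4 CPM in unchallenged Ctrl (SD, n = 3). Actn3, the α-actinin of fast fibres, averaged 21.5 ± 6.43 CPM in Vegfr3iLECko, 2.93 ± 1.27 CPM in challenged Ctrl and 26.9 ± 24.95 CPM in unchallenged Ctrl. Myoz1, Myot and Ldb3, which encode Z-disc linkers, had log2 fold changes of 2.72, 1.98 and 1.47 for Vegfr3iLECko against challenged Ctrl, with pools that did not overlap.

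Calcium handling had 6 members, and in each the 3 Vegfr3iLECko pools and the 3 unchallenged Ctrl pools were above the 3 challenged Ctrl pools. Of all genes, 6.7% had the first pattern and 8.51% the second. Atp2a1, the pump that returns calcium to the reticulum in fast fibres, was at 614, 479 and 985 CPM in Vegfr3iLECko, 227, 117 and 56.4 CPM in challenged Ctrl and 313, 1194 and 533 CPM in unchallenged Ctrl. It was 5.18-fold higher in Vegfr3iLECko than in challenged Ctrl (log2 2.37, SE 0.59; edgeR adjusted p = 0.338) and 5.09-fold lower in challenged than in unchallenged Ctrl (log2 -2.35, SE 0.59; edgeR adjusted p = 0.133). Without challenged Ctrl pool 1 these log2 fold changes were 2.99 and -2.97, and the second was -1.67 without unchallenged Ctrl pool 2. Ryr1, the channel that releases the calcium, was at 95.4, 69.3 and 101 CPM in Vegfr3iLECko, 34.5, 25.2 and 12.5 CPM in challenged Ctrl and 56.8, 159.6 and 80.5 CPM in unchallenged Ctrl. Cacna1s, the voltage sensor that opens Ryr1, averaged 27.3 ± 5.35 CPM in Vegfr3iLECko, 8.62 ± 5.71 CPM in challenged Ctrl and 37.99 ± 22.6 CPM in unchallenged Ctrl (SD, n = 3). Casq1, which stores calcium in the reticulum, and Trdn, which tethers it to Ryr1, had log2 fold changes of 1.67 and 1.30 for Vegfr3iLECko against challenged Ctrl. Pvalb, the soluble calcium buffer of fast fibres, averaged 45.9 ± 25.01 CPM in Vegfr3iLECko, 10.8 ± 5.65 CPM in challenged Ctrl and 70.4 ± 54.8 CPM in unchallenged Ctrl. The median log2 fold change of the 6 was 1.77 for Vegfr3iLECko and -2.22 for challenge in Ctrl.

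Energy supply, 6 members, covered ATP buffering, oxygen storage and sugar use. Mb, the oxygen store myoglobin, was at 231, 192 and 119 CPM in Vegfr3iLECko, 54.5, 81.7 and 33.7 CPM in challenged Ctrl and 145, 472 and 228 CPM in unchallenged Ctrl. Eno3, the muscle enolase of glycolysis, was at 173, 196 and 174 CPM in Vegfr3iLECko, 69.99, 51.8 and 26.3 CPM in challenged Ctrl and 133, 376 and 214 CPM in unchallenged Ctrl. Challenged Ctrl lay below both other groups for Mb and for Eno3. With the block, edgeR called both lower in challenged than in unchallenged Ctrl (Mb log2 -2.31, SE 0.47, adjusted p = 0.0268; Eno3 log2 -2.29, SE 0.41, adjusted p = 0.0356; fold changes and SE are from the fit without the block). With the block in the Ctrl groups only, the adjusted p was 0.0225 for Mb and 0.0549 for Eno3, so Eno3 was no longer called. Ckm, the creatine kinase of the cytosol, was 4.38-fold higher in Vegfr3iLECko than in challenged Ctrl and 5.96-fold lower in challenged than in unchallenged Ctrl (log2 -2.58, or -1.78 without unchallenged Ctrl pool 2). Ckmt2, its mitochondrial counterpart, averaged 61.1 ± 36.6 CPM in Vegfr3iLECko, 26.4 ± 20.8 CPM in challenged Ctrl and 118 ± 68.6 CPM in unchallenged Ctrl (SD, n = 3), and its Vegfr3iLECko and challenged Ctrl pools overlapped. Pygm, the phosphorylase that opens glycogen, averaged 102 ± 7.98 CPM in Vegfr3iLECko, 26.97 ± 13.5 CPM in challenged Ctrl and 131 ± 81.6 CPM in unchallenged Ctrl, and the challenged Ctrl pools lay below both other groups. Ampd1, the muscle AMP deaminase, was the scarcest of the 6 at 2.11 ± 0.897 CPM in Vegfr3iLECko, 1.03 ± 0.771 CPM in challenged Ctrl and 3.69 ± 2.48 CPM in unchallenged Ctrl, and its groups overlapped.

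Fast troponins and light chains outweighed their slow partners. Per kilobase of transcript and averaged over the 9 libraries, Tnni2 was at 194 CPM and Tnni1 at 12.8 CPM per kilobase. Tnnt3 was at 151 and Tnnt1 at 22.1, Mylpf at 152 and Myl2 at 4.66, and Myl1 at 243 and Myl3 at 0.625 CPM per kilobase. Myosin binding protein C was the reverse, with the slow-type Mybpc1 at 42.9 and the fast-type Mybpc2 at 4.52 CPM per kilobase. Acta1 was at 261 CPM per kilobase, above Myl1 in Vegfr3iLECko but below it on the mean of either Ctrl group, while Ttn, whose transcript is very long, was at 1.66. Among myosins, Myh2 was at 42.1, Myh1 at 40.6, Myh4 at 22.8, Myh7 at 1.74 and Myh13 at 1.02 CPM per kilobase.

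Fast and slow members were set side by side, and the difference between the classes was not tested. Of 12 fast members, 12 had Vegfr3iLECko pools all above the challenged Ctrl pools, beside 6.7% of all genes. This held for 2 of 7 slow members (Mybpc1 and Tnnt1) and 14 of 18 members of both fibre types. The other slow members (Myh7, Myl2, Myl3, Tnni1 and Tnnc1) overlapped through knockout pool 1 alone. For each of them knockout pools 2 and 3 were above every challenged Ctrl pool, so this contrast of the classes rests on that pool. For challenge in Ctrl 10 of 12 fast, 6 of 7 slow and 16 of 18 shared members had challenged pools all below the unchallenged pools, beside 8.51% of all genes, so the classes were alike there in this count. For Vegfr3iLECko against challenged Ctrl the median log2 fold change was 2.41 for fast, 1.61 for slow and 1.70 for shared members. For challenge in Ctrl the medians were -2.47 for fast, -1.90 for slow and -2.16 for shared members. The mean log2(CPM + 0.5) of 6 slow isoforms minus that of 9 fast isoforms was taken per library as an index of fibre type, and only its differences between libraries are read. It was -5.62, -3.53 and -3.83 in Vegfr3iLECko, -3.17, -2.45 and -3.38 in challenged Ctrl and -3.09, -4.29 and -3.52 in unchallenged Ctrl. The 3 Vegfr3iLECko values were below the 3 challenged Ctrl values, while the 2 Ctrl groups overlapped. In challenged Ctrl pool 3, Myh7, Tnni1, Myl2 and Myl3 were at 0.855, 0.912, 0.456 and 0.057 CPM. These are near or below the added 0.5, which raises the index there. The group means were -4.33 ± 1.13 in Vegfr3iLECko, -3.00 ± 0.49 in challenged Ctrl and -3.63 ± 0.61 in unchallenged Ctrl (SD, n = 3). The difference of -1.33 between Vegfr3iLECko and challenged Ctrl was -0.68 without knockout pool 1. All 6 slow isoforms were lower in that pool than in the other knockout pools, with a summed level of 21.8 CPM, against 86.8 CPM in pool 2 and 94.1 CPM in pool 3. The 9 fast isoforms summed to 1618 CPM in pool 1, 1371 CPM in pool 2 and 2358 CPM in pool 3. In challenged Ctrl pool 3 the slow isoforms summed to 8.55 CPM and the fast to 198 CPM, a lower ratio than in knockout pool 2. By the ratio of sums, Vegfr3iLECko and challenged Ctrl therefore overlapped. No p is given for the index, since its genes were chosen with results of these libraries known.

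**Figure D4:**
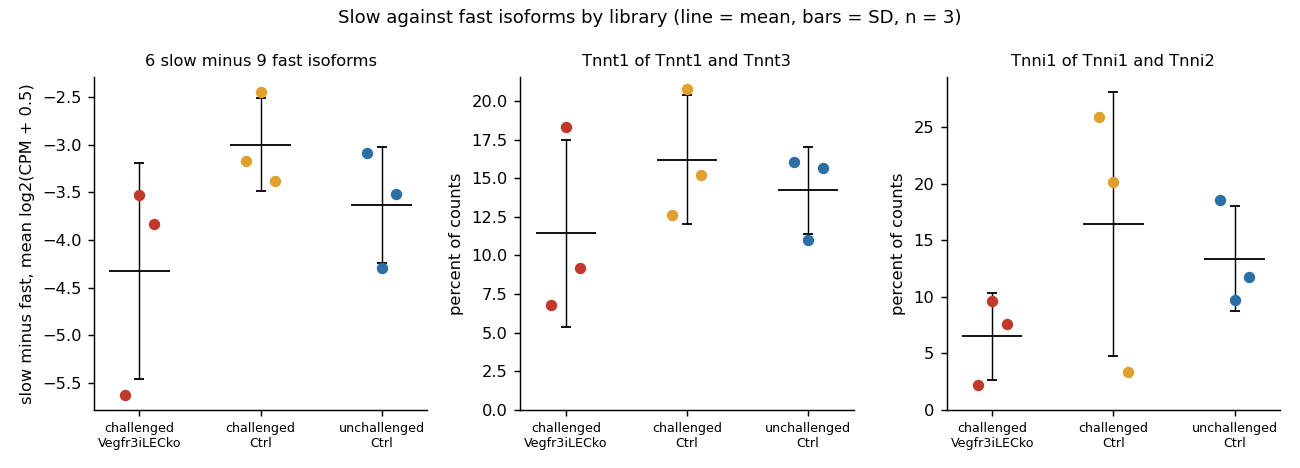
Slow against fast isoforms per library: the mean log2(CPM + 0.5) of 6 slow minus 9 fast isoforms (left), Tnnt1 in percent of the counts of Tnnt1 and Tnnt3 (middle) and Tnni1 in percent of the counts of Tnni1 and Tnni2 (right); points are pools, lines means and bars SD (n = 3). Knockout pool 1 is the lowest point in all 3 panels, at -5.62, 6.80% and 2.22%.

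The troponin pairs show the same pools from another side. Tnni1 made up 6.50 ± 3.84% of the counts of the troponin I pair in Vegfr3iLECko, 16.5 ± 11.7% in challenged Ctrl and 13.4 ± 4.66% in unchallenged Ctrl (SD, n = 3). The lowest share was 2.22% (interval 1.79 to 2.75%) in knockout pool 1 and the highest 25.9% (interval 22.9 to 29.1%) in challenged Ctrl pool 1. Tnnt1 made up 11.4 ± 6.07% of the troponin T pair in Vegfr3iLECko, 16.2 ± 4.17% in challenged Ctrl and 14.2 ± 2.83% in unchallenged Ctrl. The groups overlapped for both pairs.

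Within the 5 member myosins, Myh2 held 35.5 ± 9.65% of counts in Vegfr3iLECko, 50.2 ± 0.442% in challenged Ctrl and 48.8 ± 12.00% in unchallenged Ctrl. Myh1 held 43.4 ± 18.97% in Vegfr3iLECko, 28.6 ± 8.39% in challenged Ctrl and 26.5 ± 4.54% in unchallenged Ctrl (SD, n = 3). Knockout pool 3 had a Myh1 share of 64.6% (interval 64.01 to 65.2%), above the other 8 libraries. The slow Myh7 held 1.13 ± 0.739% in Vegfr3iLECko, 3.65 ± 2.32% in challenged Ctrl and 2.37 ± 1.36% in unchallenged Ctrl.

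Among other myosins, Myh3 and Myh15 were about as abundant as the fast member chains or more so, at 61.4 and 30.7 CPM per kilobase over the 9 libraries. Myh8, Myh7b and Myh6 were lower, at 5.19, 0.414 and 0.0075 CPM per kilobase. Myh3, the embryonic chain, was at 241, 486 and 236 CPM in Vegfr3iLECko, 209.6, 236 and 67.8 CPM in challenged Ctrl and 469, 874 and 513 CPM in unchallenged Ctrl. Myh15, a slow-tonic chain known from eye muscles, was at 122, 231 and 68.4 CPM in Vegfr3iLECko, 152, 90.9 and 30.4 CPM in challenged Ctrl and 359, 469 and 226 CPM in unchallenged Ctrl. Both had challenged Ctrl pools below all unchallenged pools, and both overlapped between Vegfr3iLECko and challenged Ctrl. Their log2 fold changes were 0.91 (SE 0.47; edgeR adjusted p = 0.640) and 0.63 (SE 0.57; edgeR adjusted p = 0.778) for Vegfr3iLECko against challenged Ctrl. For challenge in Ctrl they were -1.85 for Myh3 and -1.95 for Myh15 (edgeR adjusted p = 0.137 and 0.189). These 2 belong to a list of developmental and minor myosins that also holds the heart-type actin Actc1 and troponin T Tnnt2. Its 7 tested genes had medians of 0.92 for Vegfr3iLECko against challenged Ctrl and -1.70 for challenge in Ctrl. All 7 had challenged Ctrl pools below all unchallenged Ctrl pools, beside 8.51% of all genes.

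In a set of 10 sarcomeric myosins, put together after the values were seen, Myh3 took 22.7 ± 10.8% of counts in Vegfr3iLECko, 39.1 ± 7.52% in challenged Ctrl and 34.3 ± 4.48% in unchallenged Ctrl (SD, n = 3). Myh15 took 10.2 ± 6.25% in Vegfr3iLECko, 19.5 ± 3.63% in challenged Ctrl and 20.3 ± 8.15% in unchallenged Ctrl. Myh1 took 30.2 ± 20.3% in Vegfr3iLECko, 10.98 ± 4.77% in challenged Ctrl and 11.6 ± 4.65% in unchallenged Ctrl. The Vegfr3iLECko pools differed most among themselves, with Myh1 from 12.5% (interval 12.1 to 12.9%) in pool 2 to 52.4% (interval 51.8 to 52.96%) in pool 3. The SD of the Myh1 share within Vegfr3iLECko was larger than the difference between the group means of Vegfr3iLECko and either Ctrl group.

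**Figure D5:**
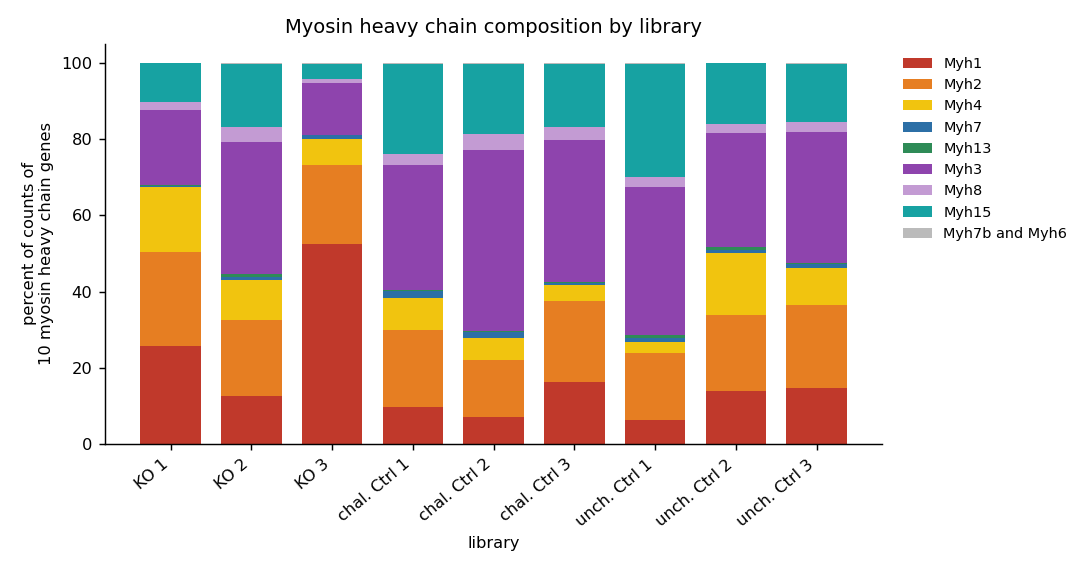
Counts of 10 sarcomeric myosin heavy chain genes in percent of their sum, stacked, in each of the 9 libraries. Knockout pool 3 has the largest Myh1 part (52.4%) and the smallest Myh15 part (3.95%); in the 6 Ctrl libraries Myh3 is the largest part.

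Set against the mean of the members in each library, some members kept a nearly constant level and others did not. The SD over the 9 libraries of a member's log2 level relative to that mean was 0.12 for Eno3, 0.14 for Pygm and 0.14 for Mylpf, the steadiest. It was 1.32 for Myh13, 0.97 for Tnni1, 0.91 for Myh1 and 0.90 for Myh7, the most variable. Fibre-type isoforms stood at both ends, with the fast Mylpf and Myh2 (0.16) among the steadiest. Counting error adds to this SD for the scarcest members.

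Muscle genes outside the members were read from lists. Of 24 other sarcomere and Z-disc genes, 20 had Vegfr3iLECko pools all above challenged Ctrl, beside 6.7% of all genes. Of the 24, 20 had challenged Ctrl pools all below unchallenged Ctrl, beside 8.51% of all genes. The median log2 fold changes of the 24 were 1.69 and -1.93, and edgeR called 0 in either comparison. With the block it called 5 lower for challenge in Ctrl, beside 0.525% of all genes. Tpm2, a tropomyosin, was at 324 ± 22.3 CPM in Vegfr3iLECko, 139 ± 29.8 CPM in challenged Ctrl and 300.3 ± 197 CPM in unchallenged Ctrl (SD, n = 3). Tpm1, which many other cells make too, had the smallest log2 fold change of that list under challenge, at 0.59 (SE 0.30). Of 15 other calcium and excitation genes, 14 were higher in Vegfr3iLECko than in challenged Ctrl, as were 50.4% of all genes. Of the 15, 8 had Vegfr3iLECko pools all above challenged Ctrl, beside 6.7% of all genes, and the median of the 15 was 1.18. Atp2a2, the calcium pump of slow fibres that nearly all cells use, was at 387 ± 13.8 CPM in Vegfr3iLECko, 405 ± 50.6 CPM in challenged Ctrl and 348 ± 29.99 CPM in unchallenged Ctrl, with overlapping groups and log2 fold changes of -0.06 for Vegfr3iLECko and 0.22 for challenge in Ctrl, opposite in sign to the members. Srl, sarcalumenin of the reticulum, was at 71.5 ± 13.5 CPM in Vegfr3iLECko, 24.1 ± 15.7 CPM in challenged Ctrl and 116 ± 72.2 CPM in unchallenged Ctrl.

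Of 15 other muscle energy genes, 13 had Vegfr3iLECko pools all above challenged Ctrl, beside 6.7% of all genes. Of the 15, 14 had challenged Ctrl pools all below unchallenged Ctrl, beside 8.51% of all genes. The median log2 fold changes of the 15 were 1.43 and -1.90. Slc25a4, the ADP/ATP carrier of muscle mitochondria, was at 313 ± 48.3 CPM in Vegfr3iLECko, 199.6 ± 22.9 CPM in challenged Ctrl and 335 ± 71.6 CPM in unchallenged Ctrl. Pfkm, the muscle phosphofructokinase, had log2 fold changes of 1.31 for Vegfr3iLECko and -1.69 for challenge in Ctrl. The 7 tested neuromuscular junction genes had smaller medians, at 0.52 and -1.16. Lrp4, a receptor at the junction, was at 24.9 ± 0.765 CPM in Vegfr3iLECko, 17.4 ± 0.727 CPM in challenged Ctrl and 26.9 ± 0.417 CPM in unchallenged Ctrl, while Chrna1, an acetylcholine receptor subunit, overlapped between Vegfr3iLECko and challenged Ctrl (log2 -0.13, SE 0.42). The 8 tested myogenic regulators and satellite cell genes had medians of 0.71 and -1.54. Among them Mef2c, a muscle transcription factor that other tissues use too, was at 39.8 ± 11.4 CPM in Vegfr3iLECko, 23.4 ± 12.3 CPM in challenged Ctrl and 61.6 ± 17.4 CPM in unchallenged Ctrl.

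Markers of other tissues were read beside the members. The summed level of 8 adipocyte markers was 35.3, 27.8 and 17.9 CPM in Vegfr3iLECko, 16.6, 18.05 and 12.9 CPM in challenged Ctrl and 54.6, 81.7 and 15.4 CPM in unchallenged Ctrl. All 6 tested adipocyte genes had positive log2 fold changes for Vegfr3iLECko against challenged Ctrl and negative ones for challenge in Ctrl, as the members did. Without the block edgeR called none of them, and with it 3 lower for challenge in Ctrl, beside 0.525% of all genes. Fabp4, a fatty acid carrier of fat cells, was at 7.40 ± 1.19 CPM in Vegfr3iLECko, 2.37 ± 1.52 CPM in challenged Ctrl and 12.1 ± 8.61 CPM in unchallenged Ctrl, and the lipase Lipe at 13.8 ± 2.55 CPM in Vegfr3iLECko, 12.1 ± 1.49 CPM in challenged Ctrl and 14.8 ± 4.28 CPM in unchallenged Ctrl. Smooth muscle Acta2 was at 218, 7.49 and 35.2 CPM and Myh11 at 188, 1.89 and 27.9 CPM in the Vegfr3iLECko pools, with challenged Ctrl at 17.5 ± 0.790 and 7.02 ± 1.92 CPM. The heart markers Myl7 and Tnni3 were low, at 5.11 ± 2.17 and 0.597 ± 0.329 CPM in Vegfr3iLECko, 6.64 ± 3.29 and 0.881 ± 0.261 CPM in challenged Ctrl and 4.36 ± 0.833 and 0.613 ± 0.218 CPM in unchallenged Ctrl. The 6 T cell genes had log2 fold changes opposite in sign to the members in both comparisons, with a summed level of 34.8, 66.97 and 35.03 CPM in Vegfr3iLECko, 295, 170.1 and 186 CPM in challenged Ctrl and 22.1, 13.4 and 16.6 CPM in unchallenged Ctrl. In edgeR 4 of the 6 passed for challenge in Ctrl, among them Ccl5, Lck and Gzma, beside 0.0576% of all genes called higher. Summed levels of 9 epithelial markers were 20408 to 35075 CPM in Vegfr3iLECko, 19819 to 30819 CPM in challenged Ctrl and 19330 to 29108 CPM in unchallenged Ctrl, and overlapped. Nerve and Schwann cell markers (Mbp and Prx among them) summed to 277 to 338 CPM in Vegfr3iLECko, 220.5 to 317 CPM in challenged Ctrl and 229 to 349.5 CPM in unchallenged Ctrl. Lymphatic markers, with Pdpn and Lyve1 among them, summed to 239 to 285 CPM in Vegfr3iLECko, 243 to 284 CPM in challenged Ctrl and 273 to 301 CPM in unchallenged Ctrl. That sum hides single markers. For Vegfr3iLECko against challenged Ctrl 2 of the 4 had positive and 2 negative log2 fold changes, from -1.20 for Flt4 to 0.73 for Prox1. The 5 blood endothelial markers, Kdr and Tek among them, summed to 98.9 to 213 CPM in Vegfr3iLECko, 112 to 144 CPM in challenged Ctrl and 155 to 215 CPM in unchallenged Ctrl. How much tissue beside the conjunctiva each pool held was not tested, nor was the part of any of these tissues in the members' levels.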

How the data were processed

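The authors deposited raw counts of reads per gene symbol for 20603 genes in 9 libraries. HISAT2, Bowtie2, DESeq2 and the build mm39 are named, per the submitters' processing notes. Their versions, the counting program, the annotation and the strand are unknown here. Each library is a pool, so p-values measure spread between pools.

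Counts were analysed in 1 edgeR 4.0.16 quasi-likelihood fit (R 4.3.3, limma 3.58.1) over all 9 libraries, with TMM scaling and filterByExpr, which left 15613 genes. Adjusted p-values are Benjamini-Hochberg over all genes tested, two-sided, with a threshold of 0.05. The biological coefficient of variation was 31.7%. DESeq2 1.42.0, other scaling, no count filter, a replicate block and leaving out each library were the alternatives. The fit was tested on simulated data. A count of 3, the floor, was 0.115 to 0.185 CPM. Wilson intervals came from SciPy 1.17.1. Levels per kilobase used transcript lengths of GENCODE M21, which is of another build, so no coordinates are given for the counts. The members, the 14 lists of other genes (131 entries) and the tests were chosen with earlier results of these data known. Values per library are given for all myosin heavy chains and troponins and for the 2 most abundant members of each role, and Tcap was added after its values were seen. Of each list the members that passed (up to 3) or the 2 most abundant are named. One gene that this rule names is not reported here.

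Over all genes tested, same-numbered challenged and unchallenged Ctrl libraries deviated together from their group means, with correlations of 0.480, 0.273 and 0.527. Every one was above 0.1, so the number was read as pairing them. This rests on the data: what a number marks is not labelled. For Vegfr3iLECko and challenged Ctrl the correlations were 0.338, -0.168 and 0.353, and these groups were not taken as paired.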

Additional observations from a re-analysis of the deposited data

How the results depend on the processing

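The direction of the members' median held under every alternative run for Vegfr3iLECko against challenged Ctrl (1.57 to 2.25 when a library was left out) and for challenge in Ctrl (-2.64 to -1.67). The counts of members called did not hold. DESeq2 called 22 members higher for Vegfr3iLECko against challenged Ctrl, beside 0.854% of all genes, where edgeR called 0. For challenge in Ctrl it called 31 lower, beside 1.94% of all genes, where edgeR also called 0. For challenge in Ctrl edgeR called 1 member (Tcap) with no count filter, among 20 genes called in either direction. With the replicate block over all 9 libraries it called 10, among 267 genes. With the replicate block in the Ctrl groups only it called 7, among 476 genes, and Ttn, Ldb3 and Eno3 missed the threshold. Leaving out a library, with no block, gave 0 to 18 members for challenge in Ctrl, with 18 among 121 genes without unchallenged Ctrl pool 1. The replicate block called 0 members for Vegfr3iLECko against challenged Ctrl and changed no other call of a member. Against unchallenged Ctrl, the median for Vegfr3iLECko ranged from -0.68 to 0.14, and was above 0 only without unchallenged Ctrl pool 2. The log2 difference of the member share was -0.15 and turned to 0.013 without knockout pool 2 and 0.30 without unchallenged Ctrl pool 2, with a range of -0.48 to 0.30. The cause was not tested. Under challenge, leaving out a library turned the sign of 3 log2 fold changes: Myh13 ranged from -0.20 (without knockout pool 2) to 2.41, Atp2a2 from -0.11 to 0.044 (without challenged Ctrl pool 1) and Chrna1 from -0.43 to 0.40 (without challenged Ctrl pool 1). Counting depth limits the scarcest members, such as Myl3, Ampd1 and Myl2.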
